A study of Rattus norvegicus with 4 samples.

Results

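The genes of milk fat globule secretion and of the epithelial mucins were examined in 4 rat mammary cancers. The 7 genes listed were Btn1a1, Xdh, Mfge8, Plin2, Muc1, Muc4 and Cidea, and their probe sets were taken by name: every probe set whose platform annotation names only 1 of these genes, whatever its value. Of the 7 genes, 6 had such a probe set, and together they had 7 of the 31099 probe sets on the array. No probe set used here was annotated to Btn1a1, so this gene, which encodes butyrophilin, has no value below.

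All 4 cancers belong to 1 group. The hosts were female rats of the outbred Sprague-Dawley stock, bought at an age of 5 weeks. At 7 weeks each received a single whole-body exposure of 0.5 Gy of carbon ions (290 MeV/u, the dose spread over a Bragg peak 6 cm deep), and from 9 weeks their AIN-76A chow held 23.5% corn oil. Carbon ions deposit their energy more densely along their track than X-rays do and are used to treat cancers. Irradiation and diet were shared by all 4 tumours, no unirradiated tumour or normal gland is analysed here, and the labels name neither the rats' age at tumour collection nor whether the 4 tumours came from separate rats. No value below therefore measures an effect of radiation or diet, and since each tumour had a single array, differences between tumours could not be checked on replicates and carry no p-value. The design allows a comparison of the individual cancers, which are called tumours 1 to 4 after the replicate numbers in the labels.

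A lactating mammary cell makes triglyceride droplets in its cytoplasm, coats them with perilipin 2 (Plin2), and sends them to the apical membrane. There butyrophilin and xanthine oxidoreductase (Xdh) join the droplet to the membrane, which wraps it and buds off as a milk fat globule. Lactadherin (Mfge8) and the membrane mucins MUC1 and MUC4 are carried on the globule's surface, and the mucins also line the apical face of luminal epithelium. In the mouse, Cidea, a lipid droplet protein best known from brown fat, is needed for normal milk lipid secretion.

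Levels are the deposited signal, a linear intensity, and log2(signal + 16). A gene has a 2-fold range when its highest tumour exceeds its lowest by 1 log2 or more, and a 4-fold range when it does so by 2 log2 or more. A gene counts as expressed when its mean over the 4 tumours reached 7.81 log2, the median of all probe-set means, a signal of about 209. The signal of one probe set is not comparable with that of another, so levels are compared between tumours and not between genes. All 6 genes passed this filter, together with 9401 of 14217 named genes in all. The arrays were deposited on 1 scale: the mean after trimming 2% from both ends was 500.1 on all 4, and the medians lay between 201.8 and 221.9. The log2 ratio of 3' to 5' control probe sets lay between -0.02 and 0.04 for GAPDH and between 0.30 and 0.48 for beta-actin.

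The promoters of Muc1 and Muc4 are shown because these are the 2 mucins of the group and their tumour orders were opposite, as described below. They are the 250 bases before 1 RefSeq transcription start of each gene in the rat assembly GRCr8, on the plus strand at chr2:176933500-176933749 for Muc1 and on the minus strand at chr11:81558315-81558564 for Muc4. Both are written 5' to 3' in the direction of transcription, and capitals mark matches to the motifs searched.
Muc1: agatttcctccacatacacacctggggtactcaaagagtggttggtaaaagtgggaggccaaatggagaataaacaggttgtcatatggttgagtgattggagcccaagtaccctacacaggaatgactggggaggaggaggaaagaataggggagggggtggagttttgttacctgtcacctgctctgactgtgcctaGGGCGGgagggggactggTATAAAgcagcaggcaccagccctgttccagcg
Muc4: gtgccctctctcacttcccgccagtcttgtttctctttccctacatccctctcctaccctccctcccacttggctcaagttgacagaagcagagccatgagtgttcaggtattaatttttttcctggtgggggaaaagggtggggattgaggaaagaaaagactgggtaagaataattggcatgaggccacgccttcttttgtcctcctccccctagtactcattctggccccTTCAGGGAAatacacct
Both strands were searched for the STAT5 element TTCNNNGAA, the GC box GGGCGG, the TATA box TATAAA and the E-box CACGTG. In the Muc1 window the capitals are a GC box that begins 51 bases before the start and a TATA box that begins 33 bases before it. In the Muc4 window they are a STAT5 element that begins 17 bases before the start. Among 33469 rat promoter windows of the same length, 7.67% held the STAT5 letters, 30.5% the GC box, 12.9% the TATA box and 5.59% the E-box. None of these motifs overlapped another in the Muc1 and Muc4 windows, and a match says only that the letters are there.

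Muc1 differed most between the 4 cancers among the 6 measured genes. Of the 6 measured genes, 1 (Muc1) had a 2-fold range, against 12.4% of all expressed genes, and none had a 4-fold range, against 2.43%. The range was under 0.5 log2 in 3 of the 6 (Xdh, Mfge8 and Plin2), against 54.3% of expressed genes. The median range was 0.49 log2 over the 6 genes and 0.47 over all expressed genes, and the median SD was 0.23 and 0.21, so the group as a whole varied about as much as other genes did. A gene was counted as set apart where 1 tumour differed from all 3 others by 1 log2 or more in the same direction. None of the 6 genes was, against 3.81% of expressed genes. Of the 6, 4 were highest in tumour 1 (28.1% of expressed genes), 0 in tumour 2 (26.4%), 2 in tumour 3 (24.5%) and 0 in tumour 4 (21.1%). The lowest tumour was tumour 1 for 1 gene (36.2% of expressed genes), tumour 2 for 1 (17.6%), tumour 3 for 2 (21.1%) and tumour 4 for 2 (25.1%). These counts take Plin2 on its brighter probe set, and the orders of Plin2 and Cidea are uncertain, as described below.

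**Figure D1:**
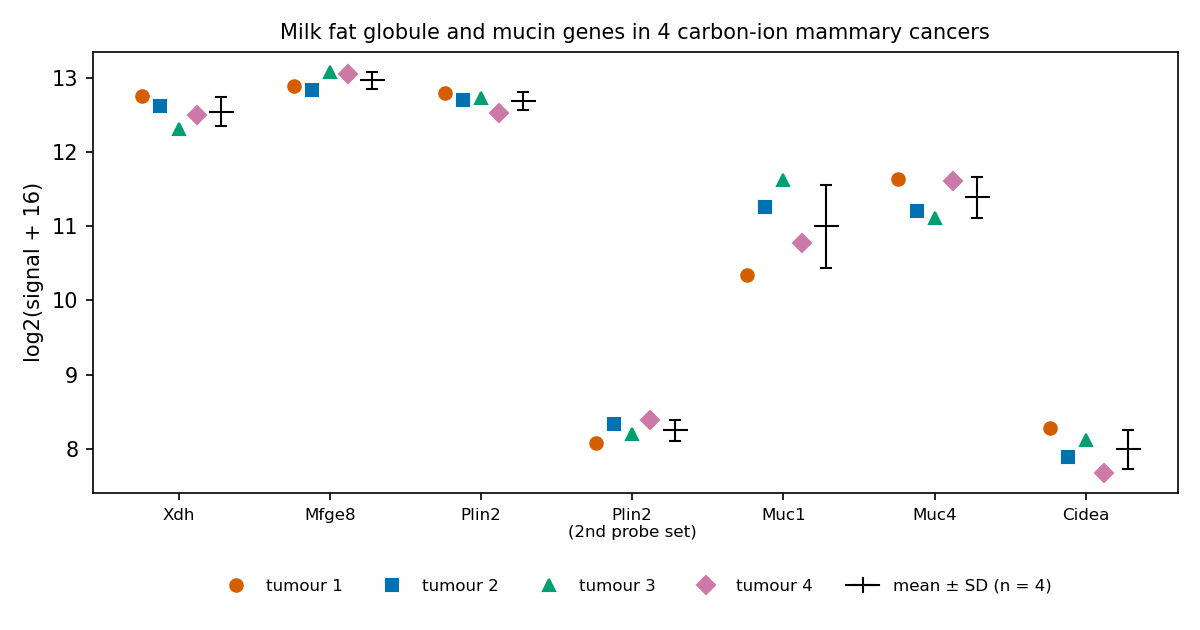
Level of each of the 7 probe sets, as log2(signal + 16), in tumours 1 to 4, with the mean and SD of the 4 tumours as a bar beside the points. The Muc1 points spread over 1.28 log2, while the points of Mfge8 and Plin2 lie within 0.31 log2 on each probe set.

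Xdh encodes xanthine oxidoreductase, a purine-degrading enzyme that in lactating cells also has a structural part in fat globule release. Its signal was 6889, 6251, 5030 and 5772 in tumours 1 to 4, or 12.75, 12.61, 12.30 and 12.50 log2. Tumour 1 was highest and tumour 3 lowest, a ratio of 1.37 in signal. The mean was 12.54 ± 0.19 log2 (SD, n = 4), and 48.0% of expressed genes had a smaller range than its 0.45. Tumour 1 stayed highest and tumour 3 lowest under both other scalings, with a range of 0.67 after quantile normalization. A pseudocount or a filter cannot reorder the tumours for a gene with 1 probe set.

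Mfge8 encodes lactadherin, a secreted protein that binds phosphatidylserine and integrins and coats milk fat globules. Its signal was 7570, 7267, 8604 and 8465 in tumours 1 to 4, or 12.89, 12.83, 13.07 and 13.05 log2. Tumours 3 and 4 were within 0.02 of each other, and tumours 1 and 2 within 0.06. The gap between these pairs was 0.16, and the whole range of 0.24 log2 was larger than that of 15.0% of expressed genes. Which tumour was highest changed from tumour 3 to tumour 4 with quantile normalization, and which was lowest changed from tumour 2 to tumour 1 when the array medians were equalised.

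Plin2 encodes perilipin 2, the coat protein of cytoplasmic lipid droplets, also called adipophilin, and it had 2 probe sets. On the brighter one the signal was 7076, 6641, 6748 and 5867 in tumours 1 to 4, or 12.79, 12.70, 12.72 and 12.52 log2. On the other it was 255, 307, 278 and 319, or 8.08, 8.33, 8.20 and 8.39 log2. The order of the tumours was exactly reversed between them: tumour 1 was highest and tumour 4 lowest on the brighter probe set, and tumour 4 was highest and tumour 1 lowest on the other. The ranges were 0.27 and 0.31 log2. Averaged over both probe sets, the range of Plin2 was 0.081 log2, so no order of the 4 tumours can be read for this gene.

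Other genes with several probe sets show how far differences of this size can be read. Where the brightest probe set of a gene had a range under 0.5 log2, the next expressed probe set had the same highest tumour in 38.7% of 1377 genes. With a range from 0.5 to under 1 log2 the share was 61.6% of 737 genes, and with a range of at least 1 log2 it was 76.1% of 213 genes. Probe sets of 1 gene share the RNA, the labelling and the array, so these shares reflect the probes only. Xdh, Mfge8, Muc1, Muc4 and Cidea each had 1 probe set, and no such check was possible for them. Bright probe sets had narrower ranges on the whole. Among the 463 genes with a mean of at least 12 log2, where Xdh, Mfge8 and the brighter Plin2 probe set lie, 65.2% had a range under 0.5 log2 and 6.70% a 2-fold range.

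**Figure D2:**
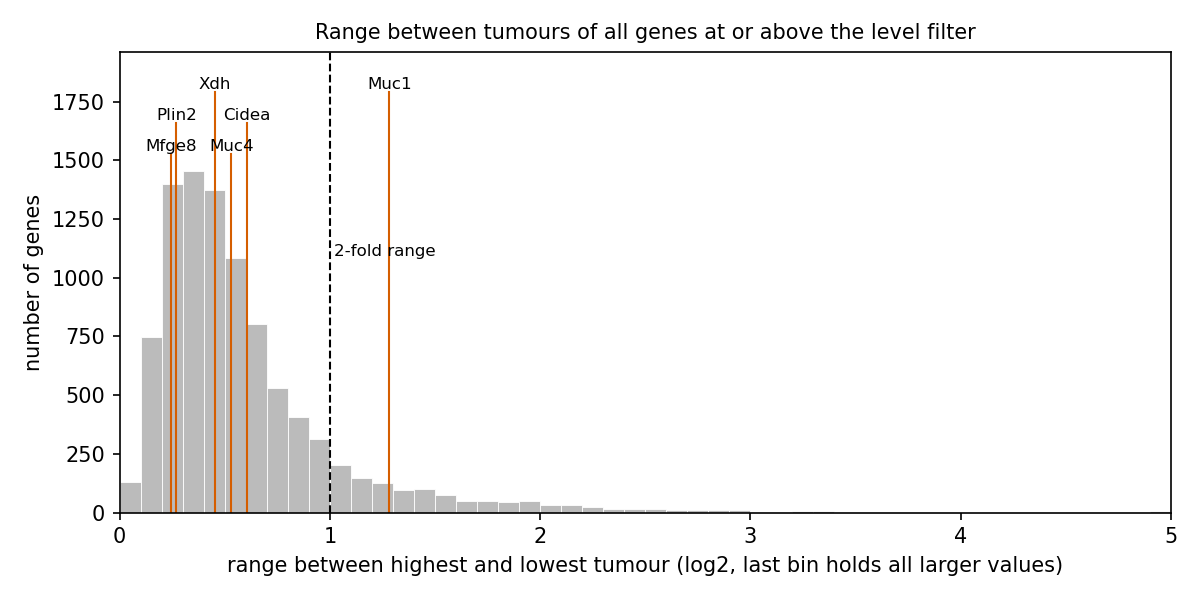
Number of expressed genes by range between the highest and the lowest of the 4 tumours, in bins of log2 (last bin holds larger values), with the 6 measured genes as vertical lines and the 2-fold range as a dashed line. Mfge8, Plin2, Xdh, Muc4 and Cidea stand within the bulk of the genes at 0.24 to 0.61 log2, and Muc1 stands at 1.28.

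Muc1 encodes a transmembrane mucin of the apical surface of luminal cells, known in carcinomas for loss of this polarity. Its signal was 1282, 2423, 3141 and 1739 in tumours 1 to 4, or 10.34, 11.25, 11.62 and 10.78 log2. Tumour 3 was highest and tumour 1 lowest, with a ratio of 2.45 in signal and a range of 1.28 log2, larger than that of 92.5% of expressed genes. The 4 values were spread evenly, with steps of 0.37, 0.48 and 0.44 log2 from the highest to the lowest, and no tumour stood alone. The mean signal was 2146 ± 813 (SD, n = 4). The 2-fold range of Muc1 was not reached without tumour 1 (0.85 log2) or without tumour 3 (0.91). Its highest and lowest tumours were the same under both other scalings. A pseudocount, a filter or averaged probe sets cannot reorder the tumours for a gene with 1 probe set.

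Markers of luminal epithelium, a list of 11 genes, moved with Muc1 in tumour 1. The list holds keratin, claudin and adhesion genes with Elf3, a transcription factor, and Wfdc2, a secreted protease inhibitor. All 11 were expressed, and 10 (all but Elf3) were lowest in tumour 1, against 36.2% of expressed genes, and the median over the 11 of tumour 1 minus the mean of tumours 2 to 4 was -0.76 log2, beside -0.88 for Muc1. Epcam, an epithelial adhesion molecule, was at 12.89 log2 in tumour 1, against 13.23, 13.70 and 13.39 in tumours 2 to 4. Krt18, a luminal keratin, was at 11.97 in tumour 1 and at 12.89, 13.30 and 12.95 in the other tumours. The summed signal of the 11 markers was 32272 in tumour 1 and 55680, 63543 and 59689 in tumours 2 to 4. In a piece of tumour, fewer luminal cells and less RNA per cell cannot be told apart.

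The match ended at tumour 4. There the median of the luminal markers, against the mean of tumours 1 to 3, was 0.30 log2 and the value of Muc1 was -0.30. Set against the mean of the 11 markers, Muc1 was at 0.14, 0.08, 0.32 and -0.54 log2 in tumours 1 to 4, with each taken from its own mean. The range of this difference was 0.86 log2, against 1.28 for Muc1 alone, and its lowest tumour was tumour 4 in place of tumour 1. Of the 11 luminal markers, 0 had the full tumour order of Muc1. Among all expressed genes 8.03% had it, so this count is near that share and says little. The part of the luminal markers in the Muc1 difference was not tested.

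Muc4 encodes the other membrane mucin, a large heterodimer first known from rat mammary carcinoma cells as the sialomucin complex, which can bind the receptor ErbB2. Its signal was 3176, 2340, 2193 and 3102 in tumours 1 to 4, or 11.64, 11.20, 11.11 and 11.61 log2. The tumours fell into pairs: tumours 1 and 4 were within 0.03 of each other, tumours 2 and 3 within 0.09, and the gap between the pairs was 0.40. The range was 0.53 log2, a ratio of 1.45 in signal, and the mean was 11.39 ± 0.27 log2 (SD, n = 4). Muc4 was not low in tumour 1, where it was 0.33 log2 above the mean of the others while the luminal markers were lower.

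Markers of basal and myoepithelial cells, the contractile layer under the luminal cells, were mixed beside Muc4. Of 8 expressed basal markers, 4 had the same tumour order as Muc4 (Krt14, Krt17, Tp63 and Tagln), against 5.74% of expressed genes. Of the 8, 5 were lowest in tumour 3, against 21.1%, and 2, Acta2 and Cnn1, in tumour 1, against 36.2%. Acta2 was at 12.41, 12.91, 12.82 and 13.03 log2 in tumours 1 to 4, and Cnn1 at 9.94, 10.80, 10.64 and 10.65. Of 10 expressed macrophage markers, 3 also had the Muc4 order and 9 were lowest in tumour 3. The summed signal of the basal markers was 31044, 26606, 21146 and 31965 in tumours 1 to 4. Krt17, a basal keratin, was at 11.86, 10.12, 9.79 and 10.77 log2, and Tp63, a transcription factor of basal cells, at 11.46, 10.75, 9.90 and 11.28. Set against the mean of the 8 basal markers, Muc4 had a range of 0.68 log2, and against that of the 11 luminal markers 1.63. Both were wider than the 0.53 of Muc4 alone. Jchain, a gene of antibody-secreting cells, also had the Muc4 order, at 10.94, 7.39, 6.68 and 10.74 log2. In tumours 2 and 3 Jchain was below 7.81 log2, and it passed the filter only through tumours 1 and 4, so its fold is uncertain. It was 1 of 2 expressed genes in a list of lymphocyte markers. The other, Cd3g, did not have the Muc4 order, at 8.38, 8.45, 7.38 and 8.65 log2 in tumours 1 to 4. These marker genes were picked out after their values were seen, and their part in the Muc4 values was not tested.

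The measured orders of the 2 mucins were exactly opposite, though part of the Muc4 order is uncertain. Muc1 went from high to low through tumours 3, 2, 4 and 1, and Muc4 through tumours 1, 4, 2 and 3. For Muc4 the gap was only 0.03 log2 between tumours 1 and 4 and 0.09 between tumours 2 and 3. The gap between these pairs was 0.40 for Muc4 and 0.48 for Muc1, in opposite directions. Of all expressed genes, 8.03% had the Muc1 order and 5.74% the Muc4 order. Each order was the same under both other scalings, while pseudocounts and filters could not change it. Among the 15 pairs of the 6 measured genes, Muc1 and Muc4 were the only reversed pair. The share of reversed pairs over all expressed genes was not computed. The same order was shared by 1 pair, Plin2 (brighter probe set) and Cidea, whose orders are uncertain. Taken within each array, the log2 ratio of Muc1 to Muc4 was -1.30, 0.05, 0.52 and -0.83 in tumours 1 to 4. This ratio varied by 1.81 log2 between tumours, more than either gene alone. The ratio of one probe set to another has no absolute meaning, and only its change between tumours is read here.

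**Figure D3:**
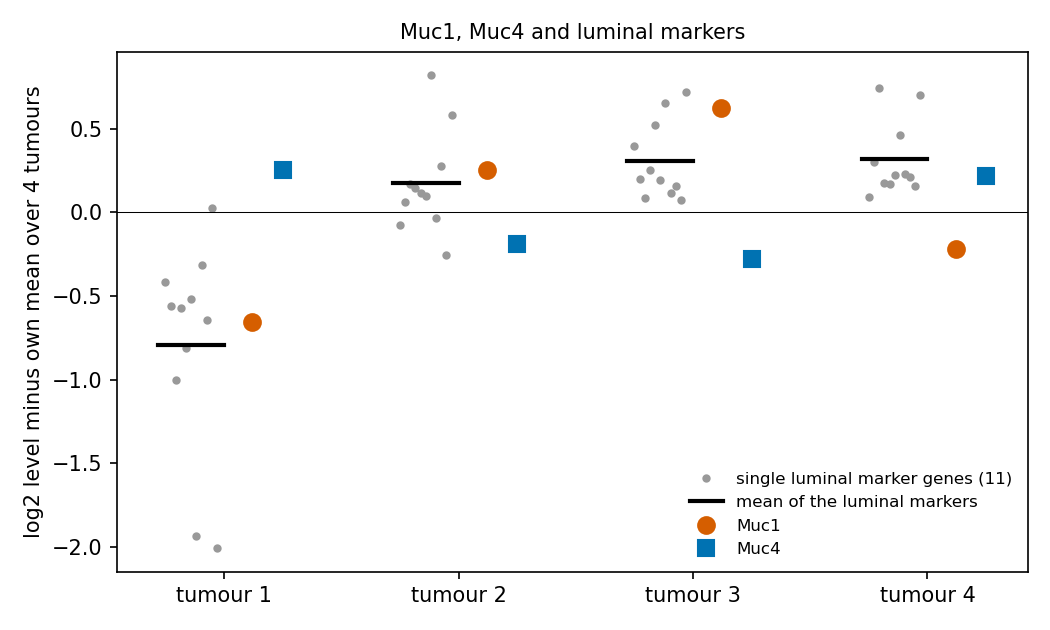
Log2 level of Muc1, Muc4 and 11 luminal marker genes in tumours 1 to 4, each minus its own mean over the 4 tumours, with a bar for the mean of the markers. In tumour 1 Muc1 lies at -0.66 near the marker mean of -0.80, while Muc4 lies at 0.25, and in tumour 4 Muc1 lies at -0.22 below the marker mean of 0.32.

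Among 8 expressed partners of MUC1 and MUC4, which include the ErbB receptors, galectin-3 (Lgals3), beta-catenin and the sheddases Adam17 and Mmp14, none had a 2-fold range, against 12.4% of expressed genes. Their median range was 0.67 log2, against 0.47 over all expressed genes. The 3 of largest range were Lgals3 (0.89 log2, lowest in tumour 4), Src (0.87, highest in tumour 3) and Erbb2 (0.82, lowest in tumour 1). Erbb2 was at 9.33, 9.73, 9.87 and 10.15 log2 in tumours 1 to 4. The probe sets of Src gave different sizes, and averaged over them its range was 0.50.

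Among 11 expressed enzymes that build or end mucin sugar chains, 3 had a 2-fold range, against 12.4% of expressed genes. Galnt6, which starts O-linked chains, was at 9.22, 7.81, 8.53 and 7.21 log2 in tumours 1 to 4, highest in tumour 1 and under the filter level in tumour 4. St3gal1, a sialyltransferase that caps such chains, was at 9.74 in tumour 1 and at 8.72, 8.79 and 8.42 in tumours 2 to 4, and its other 2 probe sets were also highest in tumour 1. Fut2, a fucosyltransferase of blood-group antigens, was at 7.70, 8.49, 9.37 and 8.35, so it was lowest in tumour 1 and highest in tumour 3 on its brightest probe set. Its other 2 probe sets, both under the filter, gave other orders: one was highest in tumour 4 and lowest in tumour 2, and the other highest in tumour 3 and lowest in tumour 4. Without tumour 1 the range of St3gal1 was 0.37, and without tumour 3 that of Fut2 was 0.79.

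Of the other mucins, Muc2, Muc3, Muc5ac, Muc5b and Muc13 stayed under the expression filter, with means below 7.81 log2. Glycam1, a small mucin-like protein secreted into milk, was expressed, at 11.92, 12.10, 13.37 and 7.24 log2 in tumours 1 to 4. Emcn, the endothelial sialomucin endomucin, was at 8.68, 8.05, 9.04 and 7.87. Both were highest in tumour 3 and lowest in tumour 4, and because Glycam1 was below 7.81 log2 in tumour 4, its fold there is uncertain.

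For genes with a 2-fold range, the 3 expressed genes of most similar pattern were taken by the root mean square difference of the 4 values after removal of each gene's own mean. For Muc1 these were Prkch, a protein kinase C gene, at 0.03 log2, Stc1, which encodes stanniocalcin 1, at 0.06, and Smad1, a transducer of bone morphogenetic protein signals, at 0.08. Prkch was at 9.03, 10.02, 10.37 and 9.51 log2 in tumours 1 to 4. Of 9400 genes compared over 4 tumours, 92 lay within 0.2 log2 of the Muc1 pattern, so these 3 are examples from a common pattern.

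Cidea encodes a protein of lipid droplet contact and growth. Its signal was 295, 222, 263 and 189 in tumours 1 to 4, or 8.28, 7.90, 8.12 and 7.68 log2. Tumour 1 was highest and tumour 4 lowest, the range was 0.61 log2, and the mean was 8.00 ± 0.26 log2 (SD, n = 4). Tumour 4 was below 7.81 log2, and all values lay close to the lower limit of what was counted as expressed, and their order is uncertain. Other genes of brown fat gave no level above the filter: Ucp1, the uncoupling protein, was at 6.09, 5.57, 4.23 and 5.70 log2, and Cox8b, Cox7a1, Dio2, Elovl3 and Ppargc1a were also under it. Of 9 white adipocyte markers with a probe set, 2 were expressed, Cfd and Lipe, while Adipoq, the adiponectin gene, lay between 6.17 and 7.21 log2.

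Relatives of Plin2 and Cidea were mostly under the filter. Of 6 perilipin and CIDE relatives, 1 was expressed, Plin3, a perilipin of many tissues, at 10.14, 10.59, 10.46 and 10.75 log2 in tumours 1 to 4, a range of 0.60. Plin1, the adipocyte perilipin, lay between 6.70 and 7.44 log2 and Cidec, the adipocyte CIDE gene, between 4.33 and 6.10. None of 4 butyrophilin-like genes with a probe set was expressed.

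A further list held the receptors of lactadherin and other genes that recognise phosphatidylserine on dying cells. Of its 8 expressed genes, 2 had a 2-fold range, against 12.4% of expressed genes. Axl, a receptor tyrosine kinase for apoptotic cells, was at 11.81 log2 in tumour 1 and at 11.15, 10.71 and 11.21 in tumours 2 to 4, and its ligand gene Gas6 was at 12.20 in tumour 1 and at 11.60, 11.16 and 11.41. Of the 2 other expressed probe sets of Gas6, one was also highest in tumour 1 and one in tumour 3, at 8.89 log2 beside 7.52 in tumour 1, and averaged over all 3 Gas6 had a range of 0.82. Tyro3, the related receptor, had a range of 0.94. Both 2-fold calls were lost without tumour 1, without tumour 3, or when the array medians were equalised. Macrophage markers were also highest in tumour 1 in 9 of 10 expressed genes and lowest in tumour 3 in 9 of 10, with a summed signal of 17091, 9455, 5095 and 9012 in tumours 1 to 4, and their part in the Axl and Gas6 values was not tested. The integrin genes Itgav, Itgb3 and Itgb5 had ranges of 0.64, 0.80 and 0.37.

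Xanthine oxidoreductase needs a molybdenum cofactor. None of 8 expressed genes of molybdenum cofactor assembly and purine breakdown had a 2-fold range, against 12.4% of expressed genes, and their median range was 0.64 log2, against 0.47. With the array medians equalised, 1 of them, Nfs1, had one. The 3 of largest range were the sulphurtransferase gene Nfs1 (0.89 log2), Mocs2, a subunit of molybdopterin synthase (0.80), and Mocos, which adds sulphur to the cofactor (0.74). Mocs2 was at 9.45 log2 in tumour 1 and at 8.66, 8.64 and 8.68 in tumours 2 to 4. Like Xdh it was highest in tumour 1, as were 28.1% of expressed genes. Of the 8 genes, 3 were highest in tumour 1. In tumour 3, where Xdh was lowest, 4 were highest, against 24.5% of expressed genes. Those 4 included Nfs1 and Mocos.

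Milk proteins were measured beside the fat globule genes. Of 7 expressed milk protein genes, 4 had a 2-fold range, against 12.4% of expressed genes, all 4 of them a 4-fold range, against 2.43%, and 5 were lowest in tumour 4, against 25.1% of expressed genes. The list was chosen with the low values of several of its members in tumour 4 already known. Csn2, which encodes beta-casein, was at 8.80 log2 in tumour 4 and at 13.33, 13.43 and 13.85 in tumours 1 to 3, and without tumour 4 its range was 0.52. Lpo, lactoperoxidase, was at 5.76 in tumour 4 but was also low in tumours 2 and 3, at 7.19 and 7.54, against 11.64 in tumour 1. Lpo was below 7.81 log2 in tumours 2 to 4 and passed the filter only through tumour 1, so its fold is uncertain. Wap, the whey acidic protein gene, which was picked out after its values were seen, was at 8.49 in tumour 4 and at 13.15, 11.16 and 11.26 in tumours 1 to 3. Without tumour 4, 3 of the 7 had a 2-fold range. Csn1s1, Csn3 and Lalba, picked out in the same way, differed by -0.20, -0.18 and -0.24 in tumour 4. Their probe sets lay near the top of the signal range, where differences may be understated. The signal of Csn3 was 12301, 13857, 17825 and 12808 in tumours 1 to 4, where the highest signal of any probe set was 12739, 13966, 17928 and 14406.

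In tumour 4 none of the 6 fat globule and mucin genes differed by 1 log2 from the mean of the others. The share of all expressed genes that did was not computed. The probe sets of Xdh, Mfge8 and Plin2 (the brighter one) were above at least 99.0% of probe sets in mean level, where differences may also be understated. Xdh, Mfge8 and Plin2 differed from the mean of the other 3 tumours by -0.06, 0.12 and -0.22 log2, and Muc1, Muc4 and Cidea by -0.30, 0.29 and -0.42. Partners of the fat globule membrane were mixed. Of 7 expressed partners, 4 were lowest in tumour 4, against 25.1% of expressed genes. A 2-fold range was seen in 3, against 12.4%, and all 3 were among those lowest in tumour 4. The 3 were the fatty acid-binding protein gene Fabp3 (-1.24), the folate receptor gene Folr1 (-1.30) and the phosphate transporter gene Slc34a2 (-0.86). Folr1 was at 7.15 log2 in tumour 4, below the filter level, so its fold is uncertain. Fabp3 was at 9.64 log2 in tumour 4 and at 10.93, 10.48 and 11.21 in tumours 1 to 3. The other 4, Plin3, Rab18, Bscl2 and Anxa2, had ranges between 0.25 and 0.72. Without tumour 4 none of the 7 had a 2-fold range.

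Of 15 expressed genes of milk triglyceride synthesis, 3 had a 2-fold range, against 12.4% of expressed genes, and 7 were lowest in tumour 4, against 25.1%. Thrsp, a regulator of lipogenesis, was at 10.03 log2 in tumour 4 and at 12.61, 11.49 and 12.25 in tumours 1 to 3, and all 3 of its probe sets had this order. Acsl1, an acyl-CoA synthetase, was at 10.25, 9.32, 8.50 and 7.83 in tumours 1 to 4 on its brightest probe set. Its other probe sets, under the filter, were also highest in tumour 1, but one was lowest in tumour 3 and the other in tumour 2. The third gene with a 2-fold range was Fabp3. The fatty acid synthase gene Fasn, at 12.94, 12.76, 12.42 and 12.50, and the lipoprotein lipase gene Lpl, at 11.01, 11.21, 10.71 and 10.78, had ranges of 0.52 and 0.50. Fibroblast markers moved with tumour 4 as well. All 8 expressed ones were lowest there, with a summed signal of 12393 in tumour 4 and 39103, 30458 and 36147 in tumours 1 to 3, and their part in these differences was not tested. Luminal markers were not low in tumour 4, with 0 of 11 lowest there.

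**Figure D4:**
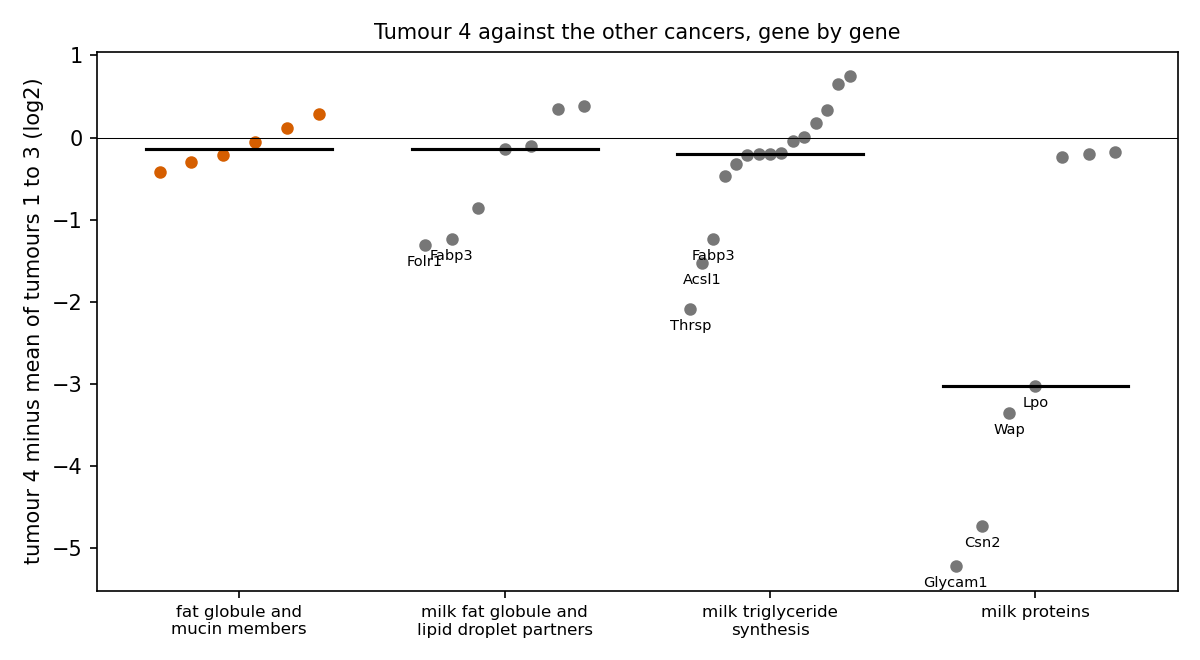
Difference in log2 level between tumour 4 and the mean of tumours 1 to 3, 1 point per expressed gene, for the 6 fat globule and mucin genes and 3 related lists, with a bar at each median. The 6 genes lie between -0.42 and 0.29, while Glycam1, Csn2, Wap and Lpo lie between -5.22 and -3.03. Glycam1 and Lpo were below 7.81 log2 in tumour 4, so their folds there are uncertain.

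The hormone receptors and transcription factors that regulate milk secretion included 3 genes with a 2-fold range among 7 expressed, against 12.4% of expressed genes. Of the 7, 4 were lowest in tumour 1, against 36.2%, and these 4 included all 3 with a 2-fold range. The luminal markers were also low in tumour 1, as described above, and their part in these values was not tested. Prlr, the prolactin receptor, was at 10.31 log2 in tumour 1 and at 12.89, 13.35 and 12.70 in tumours 2 to 4, and Gata3, a luminal transcription factor, at 10.59 and at 11.99, 11.89 and 11.41. Pgr, the progesterone receptor, was at 8.11 in tumour 1 and at 10.82, 10.30 and 9.62. Without tumour 1 these ranges were 0.65, 0.58 and 1.20. With the values as deposited and the brightest probe sets, Muc1 was the only one of the 6 fat globule and mucin genes that was lowest in the same tumour as Prlr, though Mfge8 was lowest there too once the array medians were equalised, and Plin2 once its probe sets were averaged. Xdh, Plin2, Muc4 and Cidea were highest in tumour 1 (Plin2 on its brighter probe set), where Prlr was lowest. The orders of Plin2 and Cidea are uncertain, as described above. Stat5a and Elf5, which act downstream of prolactin, had ranges of 0.53 and 0.47.

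Over all related lists, 71 distinct genes were expressed and 18 of them (25.4%) had a 2-fold range, against 12.4% of all expressed genes. The lists were chosen with earlier results of these data known, so the higher share is a description only. The 18 include Lpo, which passed the filter only through tumour 1. Without tumour 1, 11 of the list genes and 5.74% of all expressed genes had a 2-fold range. The median range was 0.72 log2 over these 71 genes and 0.47 over all expressed genes.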

How the data were processed

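One array was hybridised per cancer. According to the labels' protocols, cDNA was made from 8 µg of total RNA with an oligo-dT primer and biotin was added during in vitro transcription, which favours 3' ends. The deposited table holds a linear intensity for each of 31099 probe sets. How the authors corrected and scaled the intensities, and with what software, is not given here, but the values had a common trimmed mean. No detection call was used. Precision is limited by the 4 arrays.

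Values were analysed as deposited, as log2(intensity + 16), without a further shift between arrays, since they were already scaled. Differences between array medians were at most 0.13 log2. Probe sets were named from the platform annotation: 20826 named 1 gene and were used, 436 named several and were left out, and 9780 had no entry. Gene identifiers of 20758 were found in the RefSeq table of GRCr8. Of several probe sets the brightest was used. Counts of ranges were tested on simulated data. Sequences come from RefSeq (GRCr8), and all 7 genes matched.

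The genes named are all members, the 3 genes of largest range in each related list and the 3 most like each member with a 2-fold range. Other genes were chosen after their values were seen. Members and lists were chosen with earlier results of these data known. Alternatives covered scaling, pseudocount, level filter, probe sets and each tumour left out. Python 3.11.15 and pandas 2.3.3 were used.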

Additional observations from a re-analysis of the deposited data

Results flagged for a closer look

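The 7 probe sets of the fat globule and mucin genes and 25 further named genes were searched for a tumour far from the other 3, by the gap to the nearest tumour as a share of the whole range. A gap above Dixon's 95% critical value for 4 samples counts, and chance gives this in about 1 in 20 groups. None of the 7 probe sets had such a tumour. Csn2 had one, tumour 4, at 8.80 log2 against 13.33 in the nearest tumour, a gap of 0.896 of its range. Mocs2 had one, tumour 1, at 9.45 log2 against 8.68 in the nearest, a gap of 0.951 of its range. These are 2 of 32 items, near what chance gives. Csn2 came from a list chosen with its low value in tumour 4 known, so its value is a description. The cause was not tested in either gene.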

How the results depend on the processing

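No paired analysis was possible because all samples belong to 1 group. Muc1 was the 1 gene with a 2-fold range under both other scalings, pseudocounts of 1 and 64, both other filters and averaged probe sets. Leaving out single tumours gave 0 to 1 such genes and 0 to 1 such probe sets, with 0 without tumour 1 and without tumour 3. Leaving out tumours gave ranges of 0.25 to 0.45 log2 for Xdh, 0.091 to 0.27 for Plin2, 0.18 to 0.24 for Mfge8, 0.85 to 1.28 for Muc1, 0.44 to 0.53 for Muc4 and 0.39 to 0.61 for Cidea. Quantile normalization raised the range of Xdh to 0.67. With probe sets averaged, Plin2 had a mean of 10.47 and a range of 0.081, since its probe sets differ in brightness and order. The related lists had 29 distinct genes with a 2-fold range without a filter on low values, 10 with the upper quartile filter, and 11 to 18 when single tumours were left out, and 21.1% of all genes had one without a filter. Cidea has no value under the upper quartile filter. Over 60 results, 638 values were computed, 583 stayed within the tolerance (1 SD, or 1.5 times for counts) and 55 moved. A reversal, a change of sign from at least 1 log2, was seen in 0. Counts, levels and ranges cannot change sign, so most of these results could not have reversed. The level of Cidea near the filter limits what can be read of it.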
